A study of Mus musculus with 29 samples.

Results

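The comparison described here sets atria that met 2 challenges together, the NaV1.5 transgene and a high-fat diet, against atria that met neither. It rests on 9 of the 29 libraries of the series. Of these, 5 came from atria of male NaV1.5 transgenic mice given 4 weeks of high-fat diet (named NaV1.5_HFD in the plots, "the challenged mice" in the text), and 4 from atria of male mice labelled Ctrl on regular diet (Ctrl_RD, "the controls"). The diets began at 5 weeks of age and all 9 libraries carry batch label 1. They were chosen by their labels alone, and no measured value entered the choice. The groups with a single challenge, NaV1.5 mice on regular diet (NaV1.5_RD, 4 libraries) and Ctrl mice on high-fat diet (Ctrl_HFD, 4 libraries), stood in the same fit. Ctrl_HFD library 4 carries batch label 2, unlike every other library of the fit, and the batch term absorbs it. Fitted differences that involve Ctrl_HFD therefore rest on its libraries 1 to 3, while its CPM means and SDs use all 4. The labels give neither the promoter, allele nor species of the transgene, nor the genotype behind "Ctrl", and they do not say that each library is 1 mouse. The p-values therefore measure the spread between these libraries, which may be partly technical.

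NaV1.5 is the main voltage-gated sodium channel of heart muscle and carries the fast inward current of the action potential. Atrial muscle cells live mostly on fatty acids, which enter through CD36, are bound by FABP3 and are burned in mitochondria with NAD+ as electron acceptor. The series title ties NAD+ deficiency to atrial fibrillation in metabolic disease. Chaperones such as HSP90 and BiP fold proteins in the cytosol and in the endoplasmic reticulum, and their genes are transcribed more when unfolded protein accumulates. The circadian clock sets a daily rhythm on many heart genes, so the hour of tissue collection bears on their levels; that hour is not given in the labels.

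The libraries held 16040262 to 30365131 counted read pairs in the controls and 17272602 to 22181019 in the challenged mice, and the groups' totals overlapped (2-sided exact permutation test of total counts, p = 0.444). Mitochondrial genes took 18.7 to 21.9% of counts in the controls and 20.4 to 25.3% in the challenged mice (exact permutation p = 0.0476, against a smallest possible 0.0159). Markers of the labelled tissue were present: Myl7, the atrial myosin light chain, stood at 9717, 8401, 8073 and 10782 CPM (counts scaled to the library's total) in control libraries 1 to 4 and at 8352, 7155, 7781, 7178 and 8266 CPM in challenged libraries 1 to 5. Myl2, the ventricular light chain, stood at 80.2, 3.13, 6.06 and 4.71 CPM in the controls and at 5.15, 5.77, 7.08, 8.86 and 102 CPM in the challenged mice. Control library 1 and challenged library 5 thus stood far above their groups in this ventricular marker. On the first principal component (17.6% of variance), control library 4 (5.84) lay apart from the other 3 controls (-24.33 to -17.88) and near challenged libraries 4 and 5 (2.35 and 2.91). On the second component (11.4%) control library 4 (19.45) lay far from those 2 libraries (-21.81 and -25.16). In the groups outside the comparison, NaV1.5_RD library 4 (34.68) stood apart from its group (-22.57 to -14.15).

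The annotation the authors counted on holds a record named "flag", which received 0 counts in all 17 libraries, so it gives no check of the transgene labels.

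Across the 16168 genes tested, 761 differed at an adjusted p under 0.05 (4.71% of genes tested). Of these, 327 were higher in the challenged mice (2.02%) and 434 lower (2.68%). These shares are the background for every list count given below. The median difference was 0.49 on the log2 scale among higher genes and -0.47 among lower genes, beside 0.0055 over all genes tested. A doubling or halving (a log2 difference of at least 1) was reached by 45 of the higher and 35 of the lower genes. In 243 of the higher and 341 of the lower genes no challenged library overlapped a control library; over all genes tested, such separation held for 3.9% upward and 5.08% downward. Throughout, ± after a CPM mean is the SD (n = 4 controls, n = 5 challenged) and ± after a log2 difference the standard error; every adjusted p is edgeR's unless another tool is named. At an unadjusted p under 0.05 there were 3782 genes, where 808 would be expected with no difference. Of the other tools, DESeq2 called 1366 genes (8.45%) and limma-voom 2765 (17.1%).

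**Figure D1:**
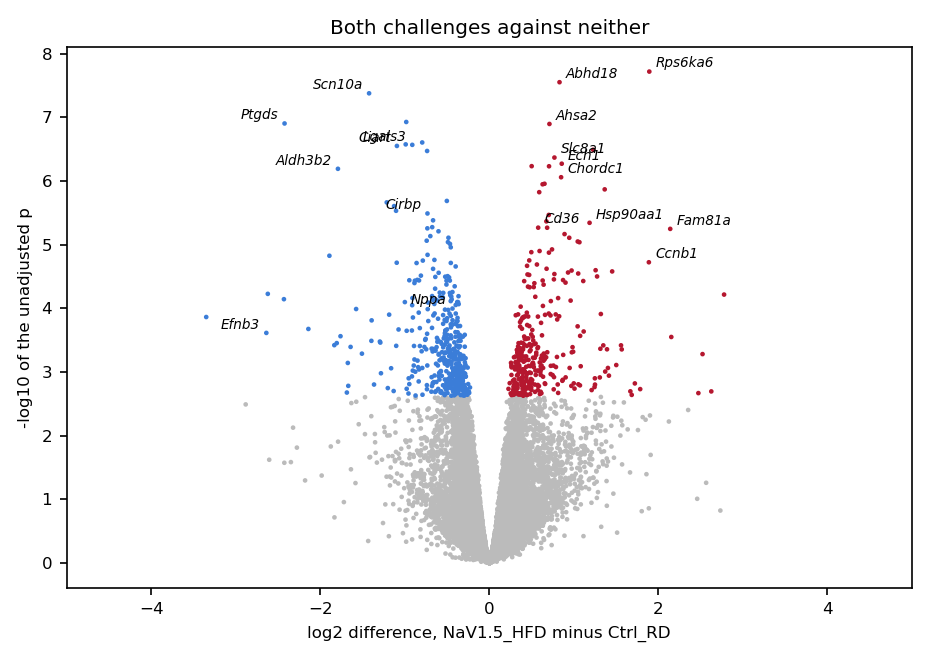
Each point is 1 of the genes tested; the horizontal axis gives the log2 difference between challenged mice and controls, the vertical axis -log10 of the unadjusted edgeR p. Red points were called higher and blue points (434) lower; of the 327 higher genes Cdh6, at 7.08, is not drawn, and 1 uncalled gene lies beyond the axis limit of 5.

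The number called moved with single libraries. It was 135 without control 1, 280 without control 2, 286 without control 3 and 1223 without control 4. It was 262, 249 and 440 without challenged libraries 2, 3 and 5, and 1416 without NaV1.5_RD library 4, which enters through the shared estimate of spread. Called genes also differed in base composition: the median GC content of their transcripts was 43.6% for higher genes, 54.7% for lower genes and 49.7% for all genes tested. With GC content and gene length fitted as offsets, 416 genes were called (2.62% of 15890), of which 146 of the 327 higher and 201 of the 434 lower genes were called as before. The part of base composition in the remaining calls was not tested.

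Cdh6, which encodes the cell adhesion protein cadherin-6 (chromosome 15, 13028701 to 13173675, minus strand, GRCm38), showed the smallest p. It had 4, 0, 2 and 0 counts in the controls, or 0.13, 0, 0.104 and 0 CPM, and 225, 201, 148, 172 and 209 counts in the challenged mice, or 11.8, 8.99, 8.51, 8.15 and 10.5 CPM. Every challenged library was far above every control library (adjusted p = 5.61e-10); the fitted log2 difference of 7.08 depends on the prior count and is not a bound. The NaV1.5_RD group stood at 10.7 ± 1.75 CPM (SD, n = 4) and the Ctrl_HFD group at 0.17 ± 0.119 CPM (SD, n = 4), so that high values were seen in the libraries labelled with the transgene on either diet. The neighbouring gene Drosha, the nuclear microRNA processor, lies 93410 bases away on the other strand and fell from 49.1 ± 3.97 to 38.1 ± 2.27 CPM (log2 -0.37 ± 0.08, adjusted p = 0.0216).

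Several genes with small p in the upward direction belong to signalling, membrane transport or protein folding. Rps6ka6, which encodes the kinase RSK4, had 1.37, 1.44, 1.19 and 1.8 CPM in the controls and 5.73, 6.71, 5.98, 4.88 and 3.82 CPM in the challenged mice. That is 3.71-fold higher with no overlap (log2 1.89 ± 0.21, adjusted p = 0.000151). Abhd18, an alpha/beta-hydrolase gene, went from 38.8 ± 3.31 to 69 ± 6.98 CPM (SD, n = 4 and 5; log2 0.83 ± 0.09, adjusted p = 0.000151). Its counts share a locus with the overlapping record Gm2011 on the same strand, which was also called higher. Neto2, an auxiliary subunit of kainate receptors, stood at 4.33, 3.57, 3.16 and 3.49 CPM in the controls and 7.83, 8.09, 10.4, 8.2 and 8.38 CPM in the challenged mice (log2 1.23 ± 0.16, adjusted p = 0.000419). Retreg1, a receptor for selective autophagy of the endoplasmic reticulum, rose from 96.8 ± 8.11 to 149.8 ± 10.04 CPM (adjusted p = 0.000865). Rc3h1, which encodes the mRNA-decay protein roquin-1, rose from 26.2 ± 1.33 to 37 ± 1.34 CPM (adjusted p = 0.000557), and Tmem100, an endothelial membrane protein gene, from 39.5 ± 5.73 to 64.5 ± 7.74 CPM (adjusted p = 0.000557). All 12 genes with the smallest p in this direction were called in each of the 17 fits that left 1 library out. They were chosen by p in the full fit on the same libraries, so this is no independent support.

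Genes with small p in the downward direction included membrane transporters, metabolic enzymes and kinases. Ptgds, prostaglandin D2 synthase, stood at 45.6, 41, 45.6 and 41.7 CPM in the controls and at 12.9, 6.39, 5.7, 8.53 and 7.03 CPM in the challenged mice. The highest challenged library lay far below the lowest control (log2 -2.42 ± 0.26, adjusted p = 0.000293). Sbk3, a heart-expressed kinase gene, stood at 1290.2, 1138, 1005 and 949.8 CPM against 741, 585, 561, 627 and 647 CPM, 1.73-fold lower with no overlap (adjusted p = 0.000412). Lgals3, which encodes the beta-galactoside-binding lectin galectin-3, had 143, 177, 185 and 190.5 CPM in the controls and 109, 88.9, 98, 87.5 and 79.3 CPM in the challenged mice (log2 -0.91 ± 0.12, adjusted p = 0.000412). Slc1a7, a glutamate transporter gene, fell from 22.7 ± 2.77 to 11.4 ± 2.26 CPM (adjusted p = 0.000412). Mrvi1, whose protein is the substrate of cGMP kinase at the calcium store, fell from 67.3 ± 8.03 to 29 ± 6.86 CPM (adjusted p = 0.0014). Aldh1l1, a folate enzyme gene, fell from 4.82 ± 0.533 to 2.2 ± 0.242 CPM (adjusted p = 0.00154), and Sh3tc2 fell from 14.8 ± 1.83 to 8.89 ± 0.37 CPM (adjusted p = 0.000419). Eml2, a microtubule-associated protein gene, fell from 48.8 ± 3.0 to 34.4 ± 3.27 CPM (adjusted p = 0.00138).

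**Figure D2:**
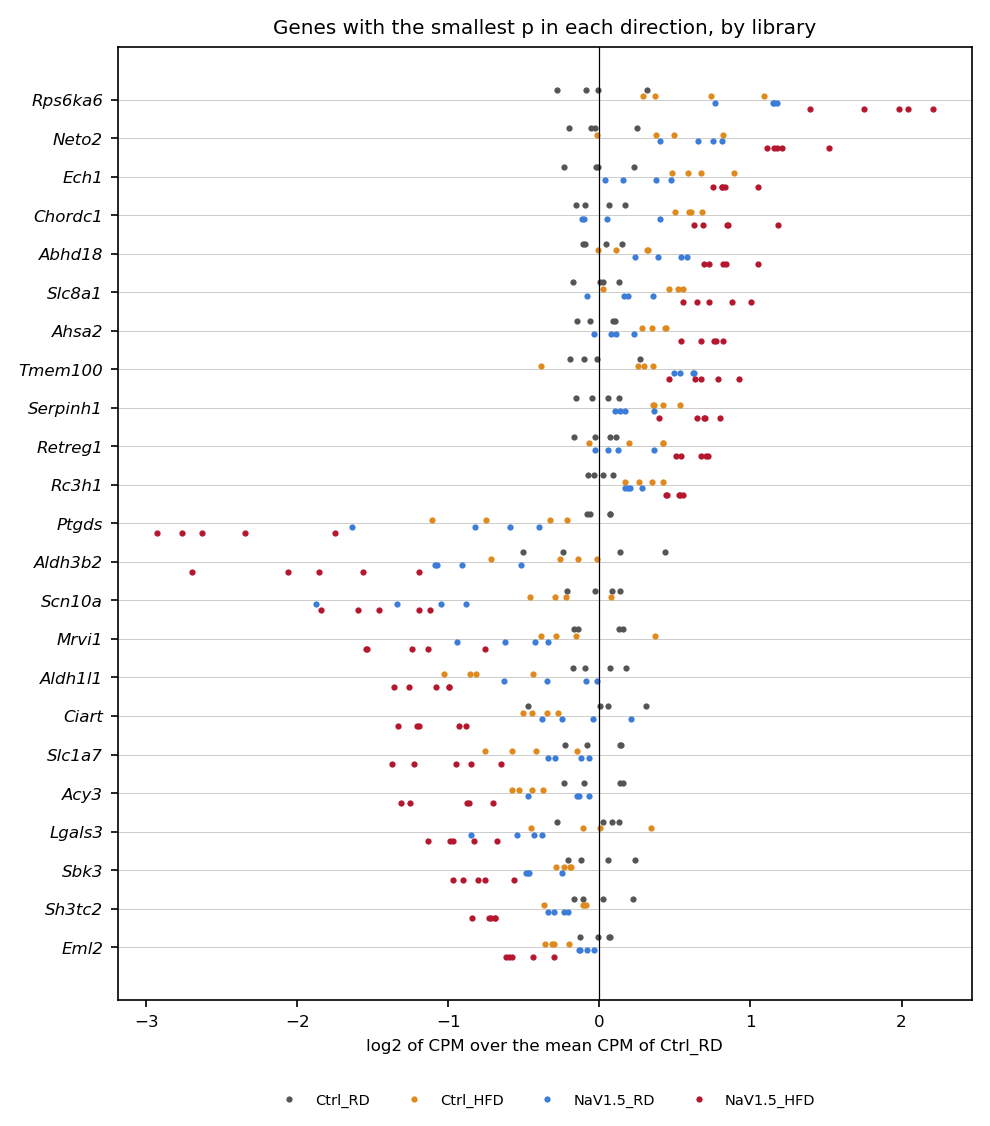
Dots are single libraries of the 4 diet groups; the horizontal axis gives log2 of a library's CPM over the mean CPM of the controls, for the 11 genes with the smallest p among higher genes (Cdh6 left out, since it is near 0 in the controls) and the 12 among lower genes. In each of these 23 genes the 5 challenged libraries lie wholly above or wholly below the 4 controls. The genes were chosen by p on these same libraries, so the separation is no independent support.

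Among called genes whose groups did not overlap, those with the largest fitted differences included Ptgds, described above, and several genes of lower count. Fam81a stood at 1.17, 0.751, 1.19 and 1.1 CPM in the controls and at 4.99, 5.72, 3.68, 4.31 and 4.87 CPM in the challenged mice (log2 2.14 ± 0.34, adjusted p = 0.00246). Efnb3, the membrane ligand ephrin-B3, stood at 33.3, 16.7, 8.34 and 37.3 CPM against 5.2, 5.54, 1.78, 3.36 and 3.31 CPM (log2 -2.64 ± 0.53, adjusted p = 0.0188), with a wide range among the controls. Slc24a4, a potassium-dependent sodium-calcium exchanger gene, stood at 4.13, 4.44, 3.78 and 4.31 CPM against 1.79, 1.61, 0.805, 0.521 and 0.854 CPM (log2 -1.89 ± 0.33, adjusted p = 0.00446). Trgc1, a T-cell receptor gamma constant gene, had 0.163, 0, 0 and 0.196 CPM in the controls and 0.315, 0.626, 0.92, 0.806 and 0.402 CPM in the challenged mice; its adjusted p of 0.0478 lay close to the threshold. Myo15b, at 0.618, 0.688, 0.674 and 0.706 against 0.158, 0.179, 0, 0.0948 and 0.151 CPM, is at the limit of a few counts per challenged library.

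Genes of the heat shock response list, mostly chaperones and their helpers in the cytosol but also the mitochondrial chaperonins and P4ha1, were called in the upward direction only. Of 26 members tested, 13 were called higher and 0 lower, beside 2.02% and 2.68% of all genes; the median log2 difference was 0.33, beside 0.0055 over all genes. Hsp90aa1, the stress-inducible HSP90, stood at 42.5, 48.7, 39.5 and 61.3 CPM in the controls and at 90.1, 123, 154, 74.9 and 104 CPM in the challenged mice, 2.28-fold higher (log2 1.19 ± 0.18, edgeR adjusted p = 0.00228). Chordc1, an HSP90 co-chaperone, stood at 22, 23, 25.6 and 27.7 CPM against 39.4, 44.3, 55.6, 37.9 and 44.2 CPM (log2 0.85 ± 0.12, adjusted p = 0.00074). Ahsa2, named for its likeness to the HSP90 ATPase activator, stood at 15.5, 13.8, 13.1 and 15.4 CPM against 24.7, 23.1, 24.4, 21 and 25.5 CPM (log2 0.71 ± 0.09, adjusted p = 0.000293). In each of these genes all 5 challenged libraries exceeded all 4 controls. Hsph1, which encodes the HSP110 nucleotide exchange factor, stood at 28.8, 33.6, 25.3 and 41.9 CPM against 69.7, 61.4, 95.2, 40.1 and 56.5 CPM, and here challenged library 4 lay below control 4 (log2 0.99 ± 0.22, adjusted p = 0.0249).

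The mitochondrial chaperonin pair Hspd1 and Hspe1 also rose, Hspd1 from 156 ± 10.3 to 193 ± 17.4 CPM (adjusted p = 0.0324) and Hspe1 from 82.6 ± 17.1 to 129.9 ± 22 CPM (adjusted p = 0.0262). Dnaja4, a J-domain co-chaperone gene, rose from 36.8 ± 1.92 to 49 ± 3.2 CPM (adjusted p = 0.00655), and Dnaja1, of the same family, from 30.7 ± 3.9 to 45.2 ± 8.73 CPM (adjusted p = 0.0257). The classic inducible HSP70 genes did not pass: Hspa1a stood at 1.55 ± 0.458 CPM in the controls and 1.54 ± 0.69 CPM in the challenged mice, and Hspa1b at 1.99 ± 0.353 and 1.53 ± 0.453 CPM. These 2 near-identical genes share sequence, and read pairs that fit both were left out by the authors' counting. The list's count fell to 4 without control 1 and to 7 with the GC and length offsets, and its median stayed between 0.26 and 0.37 in all settings run. Hspd1, Hspe1, Hsph1, Dnaja1, Hspa1a and Hspa1b are named here after their values were seen.

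The promoters of the called heat shock genes are shown because 4 of the 11 with a window in the RefSeq table hold the binding letters of heat shock factor. The heat shock element was searched as 3 alternating units, GAA, TTC and GAA, each 2 bases from the next, on either strand (read as TTC, GAA and TTC on the other). It occurs in 0.603% of the 32851 RefSeq windows (GRCm38.p6) that run from 250 bases before to 50 bases after a gene start. None of the 11 uncalled members with a window holds it. For this and the later motifs, the share counts windows, whereas a member counted if any of its windows matched. The lists were chosen with earlier results known and the called split comes from these same data, so these counts are no test. Hspd1 and Hspe1, whose records overlap, are both among the 4. Hsp90aa1 has no window in that source. The windows of the 3 called genes with the smallest p among those 4 are given 5′ to 3′ on the gene's strand, with matches in capitals. They lie at chr9:18292017-18292316 (plus strand), chr5:149636266-149636565 (minus strand) and chr1:55087898-55088197 (plus strand).
Chordc1: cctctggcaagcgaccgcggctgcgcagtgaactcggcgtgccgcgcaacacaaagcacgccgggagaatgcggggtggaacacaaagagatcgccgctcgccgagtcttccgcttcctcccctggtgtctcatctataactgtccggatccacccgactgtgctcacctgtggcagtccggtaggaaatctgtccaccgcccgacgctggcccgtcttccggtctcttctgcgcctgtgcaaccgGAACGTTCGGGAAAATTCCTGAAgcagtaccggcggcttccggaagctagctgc
Hsph1: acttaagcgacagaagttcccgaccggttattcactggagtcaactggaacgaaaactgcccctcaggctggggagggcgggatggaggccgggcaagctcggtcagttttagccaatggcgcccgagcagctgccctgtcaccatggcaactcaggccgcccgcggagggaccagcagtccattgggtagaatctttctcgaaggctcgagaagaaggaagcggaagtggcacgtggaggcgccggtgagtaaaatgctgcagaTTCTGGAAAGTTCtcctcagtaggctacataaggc
Hspe1: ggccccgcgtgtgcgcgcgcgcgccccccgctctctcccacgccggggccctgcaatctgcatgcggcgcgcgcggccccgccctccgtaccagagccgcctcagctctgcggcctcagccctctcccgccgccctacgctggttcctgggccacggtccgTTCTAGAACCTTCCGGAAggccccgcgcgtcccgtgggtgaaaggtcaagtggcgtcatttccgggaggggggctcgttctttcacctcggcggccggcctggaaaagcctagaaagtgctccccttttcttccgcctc
Chordc1 holds 3 overlapping matches next to its start, Hspe1 holds 2, and Hsph1 holds 1. The Hspe1 window lies within the annotated Hspd1 record, which runs on the other strand and overlaps the start of Hspe1 by 111 bases. A match is a run of letters and does not show binding in these atria.

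The second stress program measured was that of the endoplasmic reticulum. Of 31 tested genes of the unfolded protein and integrated stress responses, 11 were called higher and 0 lower, beside 2.02% and 2.68% of all genes. Their median log2 difference was 0.30. Hsp90b1, the endoplasmic HSP90 paralogue GRP94, stood at 286, 296, 263 and 348 CPM in the controls and at 391, 441, 506, 401 and 420.0 CPM in the challenged mice (log2 0.53 ± 0.10, adjusted p = 0.00684). Manf, a secreted endoplasmic reticulum stress protein gene, stood at 35.5, 40.5, 39.9 and 40.1 CPM against 49.4, 48.9, 57.7, 61.3 and 66.9 CPM (log2 0.54 ± 0.11, adjusted p = 0.00931). Atf6, the membrane-bound sensor and transcription factor, rose from 91.8 ± 4.64 to 119 ± 4.68 CPM (adjusted p = 0.0112). Pdia3, a disulfide isomerase gene, rose from 214 ± 10.5 to 281 ± 31 CPM (adjusted p = 0.0137). Hspa5, the chaperone BiP, was named after its values were seen and rose from 400.4 ± 16.4 to 504 ± 51.5 CPM (adjusted p = 0.0434). None of the amino-acid response genes Atf4, Ddit3, Trib3, Asns, Phgdh and Psat1 in the list passed. The count stayed at 11 with GC and length offsets and was 1 without control 1.

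The endoplasmic reticulum stress element, searched as CCAAT followed after 9 bases by CCACG on either strand, occurs in 0.119% of the same windows. It was found in 4 of the 9 called members with a window (Dnajc3, Hsp90b1, Hspa5 and Pdia6) and in 4 of the 19 uncalled ones (Calr, Canx, Creld2 and Syvn1), so its letters occurred on both sides of the threshold. The 2 windows of the called genes with the smallest p are shown, at chr10:86705395-86705694 (minus strand) and chr14:118937682-118937981 (plus strand).
Hsp90b1: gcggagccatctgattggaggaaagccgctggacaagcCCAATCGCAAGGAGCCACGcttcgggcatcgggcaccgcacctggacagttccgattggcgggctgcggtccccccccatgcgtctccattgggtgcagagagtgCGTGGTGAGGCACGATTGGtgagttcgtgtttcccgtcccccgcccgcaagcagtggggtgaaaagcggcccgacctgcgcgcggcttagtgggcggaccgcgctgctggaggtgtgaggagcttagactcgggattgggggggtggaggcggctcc
Dnajc3: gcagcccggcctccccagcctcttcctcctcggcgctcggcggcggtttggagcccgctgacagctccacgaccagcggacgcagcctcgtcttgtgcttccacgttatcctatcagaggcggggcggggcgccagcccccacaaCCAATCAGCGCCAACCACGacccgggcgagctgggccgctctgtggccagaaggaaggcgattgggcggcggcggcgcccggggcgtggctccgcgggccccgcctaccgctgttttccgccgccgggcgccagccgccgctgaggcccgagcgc
Dnajc3, a J-domain inhibitor of the kinase PERK, rose from 54.5 ± 6.92 to 73.4 ± 10.6 CPM (adjusted p = 0.028). Pdia6, another disulfide isomerase gene, rose from 138 ± 10.4 to 180.5 ± 21.8 CPM (adjusted p = 0.0421). Hsp90b1 carries 2 matches, 1 in each orientation.

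Serpinh1, which encodes the collagen chaperone HSP47, was the member of the collagen folding list with the smallest p. It stood at 291, 239.9, 278 and 258 CPM in the controls and at 351, 431, 464, 433 and 418 CPM in the challenged mice, with no overlap (log2 0.65 ± 0.09, adjusted p = 0.000865). P4ha1, a collagen prolyl hydroxylase subunit, rose from 69.9 ± 3.31 to 92.8 ± 8.22 CPM (adjusted p = 0.0136), and Plod2, a lysyl hydroxylase, from 25.9 ± 1.28 to 32.1 ± 0.578 CPM (adjusted p = 0.0264). They were the 3 members of 18 called higher, with 0 lower and a list median of -0.02. P4ha1 also stands in the lists for the heat shock and hypoxia responses. Of 48 extracellular matrix genes, collagens among them, 0 were called higher and 2 lower, beside 2.02% and 2.68% of all genes. These were Fbln1, at 531 ± 55 against 392 ± 48.4 CPM, and Tgfb3, at 53.8 ± 4.83 against 42.6 ± 4.72 CPM; neither was called with GC and length offsets.

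Cirbp, the cold-inducible RNA-binding protein, whose mRNA falls with warming and cycles daily with body temperature, was lower. It stood at 100.5, 99.1, 90.3 and 98.8 CPM in the controls and at 72.3, 55.7, 48.2, 63.5 and 53 CPM in the challenged mice (log2 -0.73 ± 0.11, adjusted p = 0.00186). It was called in every one of the 26 alternative fits. Rbm3, its close relative, stood at 56.6 ± 2.98 CPM in the controls and 52.5 ± 4.75 CPM in the challenged mice (log2 -0.11 ± 0.15, adjusted p = 0.706).

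Circadian clock genes were called in the downward direction only: of 20 tested, 7 were called lower and 0 higher, beside 2.68% and 2.02% of all genes. The list median was -0.27. Ciart, a repressor within the clock, stood at 33.3, 39.5, 32 and 23.1 CPM in the controls and at 13.9, 16.8, 12.7, 17.3 and 14 CPM in the challenged mice (log2 -1.09 ± 0.14, adjusted p = 0.000412). Dbp, a clock output transcription factor gene, stood at 172, 155, 148 and 139.8 CPM against 84, 101, 76.1, 129 and 99.8 CPM (log2 -0.65 ± 0.11, adjusted p = 0.00503). Both showed every challenged library below every control. Hlf, a relative of Dbp, fell from 64.2 ± 7.41 to 41.3 ± 5.12 CPM (adjusted p = 0.00647), and Tef, the remaining gene of that family, from 244 ± 34.4 to 189 ± 15.3 CPM (adjusted p = 0.0442). Per1, a clock repressor, fell from 100.3 ± 21.1 to 58.9 ± 10.8 CPM (adjusted p = 0.0233). Usp2, a clock-driven deubiquitinase, and Bhlhe40, a repressor, were also called, at log2 -0.64 ± 0.15 and -0.54 ± 0.13; both, like Tef, are named after their values were seen. The core activator Arntl (BMAL1) stood at 2.76, 1.81, 0.466 and 3.37 CPM in the controls and 1.68, 1.97, 0.863, 2.56 and 3.56 CPM in the challenged mice, with wide and overlapping ranges. The called count was 3 without control 1, without control 3 or without challenged library 2 or 3, and 5 with GC and length offsets. The hour of collection, if it differed between groups, cannot be told apart from the challenges.

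The E-box CACGTG, the site of the clock activators, reads the same on both strands and occurs in 7.15% of all windows. It was found in 3 of the 6 called clock genes with a window (Ciart, Per1 and Tef) and in 2 of the 11 uncalled ones. Ciart carries 3 copies in its window at chr3:95882179-95882478 (minus strand), shown with the copies in capitals.
Ciart: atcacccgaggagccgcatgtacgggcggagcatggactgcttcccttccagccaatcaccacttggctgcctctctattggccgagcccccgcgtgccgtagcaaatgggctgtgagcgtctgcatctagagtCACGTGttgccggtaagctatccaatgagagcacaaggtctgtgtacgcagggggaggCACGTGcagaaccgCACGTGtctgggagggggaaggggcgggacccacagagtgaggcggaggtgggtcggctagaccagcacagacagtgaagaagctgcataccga
No such match was found in the windows of the other called clock genes, which says only that these letters are absent there.

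**Figure D3:**
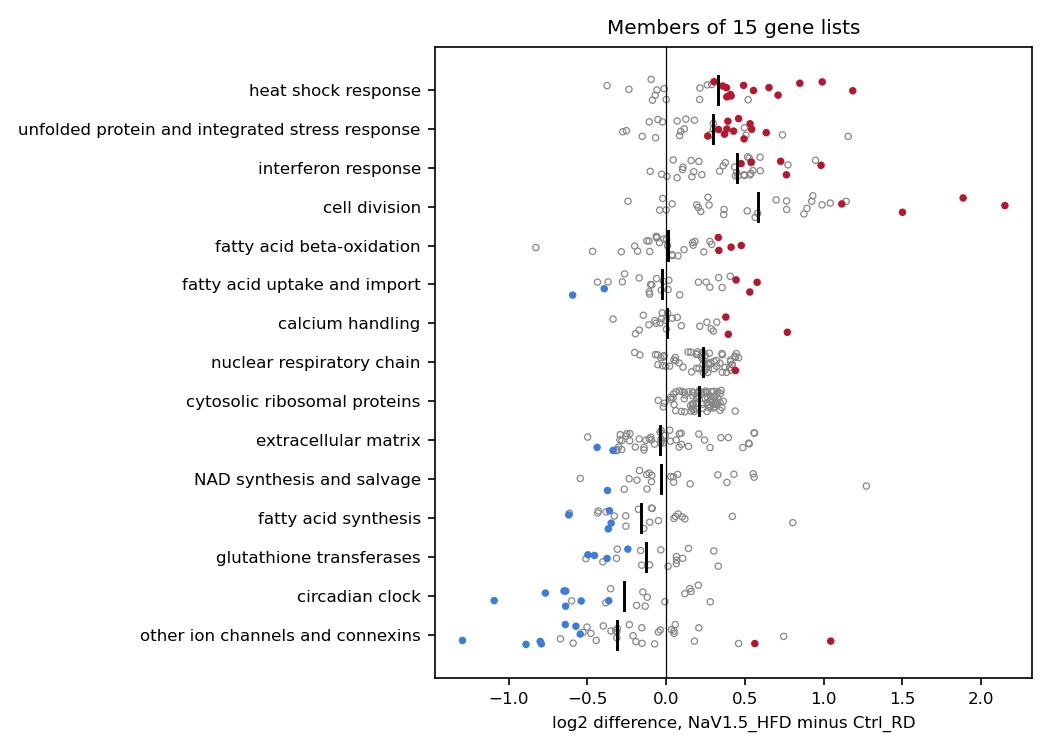
Each symbol is 1 tested member of the list named at the left, placed by its log2 difference between challenged mice and controls; filled red and blue symbols were called higher and lower, open symbols were not called, and black bars are list medians. The heat shock, unfolded protein and interferon lists carry called members above 0 only, with medians of 0.33, 0.30 and 0.45, and the clock list below 0 only, with a median of -0.27.

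Scn10a, the NaV1.8 sodium channel gene (chromosome 9, 119608456 to 119719322, minus strand), was lower. It stood at 19.1, 17, 18.4 and 15 CPM in the controls and 7.99, 4.83, 6.33, 7.58 and 5.72 CPM in the challenged mice. This 2.68-fold lower level left no overlap (log2 -1.42 ± 0.16, adjusted p = 0.000169) and was called in all 26 alternative fits. The NaV1.5_RD group stood at 7.35 ± 2.04 CPM and the Ctrl_HFD group at 15 ± 2.39 CPM (SD, n = 4 each). Between those groups, which share no library with the comparison, the log2 difference was -0.93 ± 0.19 (adjusted p = 0.0375).

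Among 37 other ion channel and connexin genes, 7 were called lower and 2 higher, beside 2.68% and 2.02% of all genes. The list median was -0.31. Kcnj2, the inward rectifier Kir2.1, was higher, at 36.5, 40.6, 32.6 and 35 CPM in the controls against 58.4, 47.4, 49.6, 54.5 and 57.1 CPM in the challenged mice (log2 0.56 ± 0.10, adjusted p = 0.00533), and the groups did not overlap. The delayed rectifier genes Kcnh2 and Kcnq1 fell, Kcnh2 from 203 ± 18.7 to 139 ± 19 CPM (adjusted p = 0.0154) and Kcnq1 from 64.8 ± 7.75 to 43.5 ± 6.83 CPM (adjusted p = 0.0219). Hcn2, a pacemaker channel gene, fell from 7.05 ± 0.766 to 3.8 ± 1.1 CPM (adjusted p = 0.0231). The calcium channel genes Cacna2d2 and Cacna1d fell, with log2 differences of -1.29 ± 0.28 and -0.80 ± 0.19. Kcnip2, which carries the partner of the transient outward channels, fell from 71.1 ± 6.4 to 41 ± 11.6 CPM (adjusted p = 0.0315), and Abcc8, the sulfonylurea receptor of atrial KATP channels, from 181 ± 31 to 116 ± 20.2 CPM (adjusted p = 0.0466). The count of 9 was 2 without control 1 and 6 with offsets; Kcnq1, Hcn2, Cacna1d, Kcnip2 and Abcc8 were named after their values were seen.

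Calcium handling genes showed 3 called higher of 24 and 0 lower, beside 2.02% and 2.68% of all genes, with a median of 0.01. Slc8a1, the sodium-calcium exchanger NCX1, stood at 175, 188, 152 and 172 CPM in the controls and at 268, 316, 344, 253 and 284 CPM in the challenged mice, 1.71-fold higher with no overlap (log2 0.77 ± 0.10, adjusted p = 0.000494). Casq2, the calcium buffer of the sarcoplasmic reticulum, rose from 789.9 ± 88.5 to 1027 ± 113 CPM (adjusted p = 0.0409). Slc8a1 was called in all 26 alternative fits; Casq2 was not called with offsets or without control 1, 2 or 3, among others.

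Genes of mechanical load and the contractile apparatus moved both ways: of 26 tested, 3 were called higher and 5 lower. Nppa, atrial natriuretic peptide, stood at 21534, 20577, 22026 and 21035 CPM in the controls and at 15878, 15545, 14707, 16779.6 and 15814 CPM in the challenged mice (log2 -0.44 ± 0.09, adjusted p = 0.0119). The challenged libraries therefore lay in a narrow band below the controls. Myh6, the alpha myosin heavy chain, fell from 18282 ± 2337 to 12379 ± 1454 CPM (adjusted p = 0.0227), Tnnt2, cardiac troponin T, from 10352 ± 711 to 8069 ± 946 CPM (adjusted p = 0.0442), and Des, desmin, from 1559 ± 173 to 1165 ± 132 CPM (adjusted p = 0.0442). Tnni1, the slow troponin I of the fetal heart, fell from 9.0 ± 0.906 to 3.68 ± 1.38 CPM (adjusted p = 0.0221). Xirp2, a protein of the intercalated disc, rose from 126 ± 7.6 to 189.8 ± 17.6 CPM (adjusted p = 0.00105) and was called in all 17 leave-one-out fits. Fhl1 and Fhl2, LIM-domain genes of stretch signalling, rose by log2 0.43 ± 0.10 and 0.57 ± 0.13. Without control 1 a single member of the list was called. Myh6, Tnnt2, Des and Fhl2 were named after their values were seen.

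Of 22 tested transcription factor genes of atrial identity and rhythm, Tbx5 was called lower and Etv1 higher. Tbx5 stood at 262, 242, 251 and 204 CPM in the controls and at 179, 134, 139.6, 160.2 and 138 CPM in the challenged mice (log2 -0.68 ± 0.15, adjusted p = 0.0168). Etv1 rose from 24.6 ± 2.16 to 34.3 ± 6.43 CPM (adjusted p = 0.0342), with challenged library 5 inside the control range. Beside these, 3 of 12 atrial cardiomyocyte markers were called lower (Nppa, Tbx5 and Dkk3) and 0 higher. The markers' summed level was 50882 to 56823 CPM in the controls and 43798 to 48719 CPM in the challenged mice, without overlap. Nppa, itself called lower, was the largest part of that sum, at means of 21293 against 15745 CPM. Over the 12 markers 9 lay below 0 and 3 above, with a median of -0.25. Myl4 stood at 12151 against 12052 CPM and Sln at 3653 against 4455 CPM, neither called. In tissue RNA, fewer cells of a type and less RNA per cell cannot be told apart.

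Genes of fatty acid use moved in both directions. Cd36, the fatty acid translocase, stood at 547, 573, 510.1 and 615 CPM in the controls and at 819, 884, 895, 725 and 867 CPM in the challenged mice, with no overlap (log2 0.58 ± 0.09, adjusted p = 0.00246). The binding protein genes rose as well, Fabp3 from 705 ± 85.1 to 959 ± 58.3 CPM (adjusted p = 0.0395) and Fabp4 from 401 ± 74.2 to 579 ± 60.2 CPM (adjusted p = 0.0227). Against these, Cpt1a, the liver-type gate of mitochondrial import, fell from 87.7 ± 5.41 to 66.8 ± 8.6 CPM (adjusted p = 0.0312), and Pnpla2, the triglyceride lipase ATGL, from 428 ± 50.6 to 284 ± 48.4 CPM (adjusted p = 0.0255). These made up the 3 higher and 2 lower of 26 uptake and import genes. Of 29 beta-oxidation genes, 4 were called higher and 0 lower, beside 2.02% and 2.68% of all genes, with a median of 0.01. They were Decr1, the reductase for unsaturated fatty acids, at 219, 245, 229 and 236 against 335, 319, 295, 323 and 346 CPM (log2 0.48 ± 0.09, adjusted p = 0.00745), Hadhb at log2 0.41 ± 0.09, Etfdh at 0.33 ± 0.08 and Acadvl at 0.33 ± 0.08. Ech1, an isomerase for unsaturated fatty acids and a member of the list of PPAR targets, stood at 639, 548, 635 and 755 CPM against 1335, 1133, 1085, 1149 and 1133 CPM (log2 0.86 ± 0.12, adjusted p = 0.000557). The PPAR list gave 3 higher (Ech1, Cd36 and Fabp3) and 2 lower (Cpt1a and Pdk2) of 25; with GC and length offsets it gave 4 higher and 0 lower. Without control 1, 1 uptake gene and 1 oxidation gene were called.

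Lipid synthesis genes were called in the downward direction only, 4 of 24, with a median of -0.16. Fasn, fatty acid synthase, stood at 38.6, 29.7, 30.1 and 25.8 CPM in the controls and at 21.8, 20.3, 17.8, 22.6 and 18.7 CPM in the challenged mice (log2 -0.62 ± 0.14, adjusted p = 0.0204). Fads1, Scd2 and Agpat2, which desaturate or esterify fatty acids, were lower, with log2 differences of -0.35 ± 0.08, -0.37 ± 0.10 and -0.36 ± 0.09. Markers of white fat cells varied beside them: Adipoq stood at 2.73, 1.63, 1.66 and 3.73 CPM in the controls and 0, 0.358, 0.403, 1.42 and 0.301 CPM in the challenged mice, and Plin1 at 1.43, 0.876, 0.57 and 1.29 and 0, 0.0894, 0.0575, 0.379 and 0.151 CPM. Over the 11 tested members of that marker list, 8 lay below 0 with a median of -2.18, and 1 was called (Fabp4, higher). The summed level was 433 to 586 against 568 to 722 CPM. Most of that sum was Fabp4, also an endothelial gene, whose means are given above, so the sum mainly follows that gene. The part of fat cells in the synthesis genes was not tested. Cholesterol synthesis had 1 call of 25, Srebf2, a regulator of sterol genes, lower at log2 -0.39 ± 0.09. Ketone body genes had 0 calls of 8 by edgeR, DESeq2 and limma-voom, with 2 at an unadjusted p under 0.05. Glucose use had 3 lower and 0 higher of 32: Hk1 fell from 183 ± 20.5 to 131 ± 10.1 CPM (adjusted p = 0.0238), Slc2a4, the insulin-responsive transporter GLUT4, from 345 ± 45.3 to 262 ± 32 CPM (adjusted p = 0.0442), and Pdk2, a pyruvate dehydrogenase kinase gene, from 372 ± 61.2 to 247 ± 43.4 CPM (adjusted p = 0.0391). None of these 3 was called without control 1, 2 or 3.

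For the NAD genes, to which the series title points, calls are set beside 4.71% of all genes tested. In lists of this size, counts of 1 or 2 are not read as a result about these genes. Of 22 tested synthesis and salvage genes 1 was called, lower: Nmnat3, the mitochondrial NMN adenylyltransferase, stood at 18.7, 19.1, 19.4 and 18.2 CPM in the controls and at 16.6, 14.3, 13.6, 12.8 and 15.4 CPM in the challenged mice (log2 -0.38 ± 0.09, adjusted p = 0.0249). The groups did not overlap, yet the call was lost with offsets and without control 1, 2 or 3. Nampt, which makes NMN from nicotinamide, stood at 67.6, 75.9, 65.1 and 82 CPM against 94.8, 70.4, 81.1, 63.3 and 65.5 CPM with overlapping ranges (log2 0.05 ± 0.15, adjusted p = 0.89). Nmrk1 and Nmrk2, the kinases for nicotinamide riboside, stood at 6.53 ± 0.415 and 14.5 ± 5.0 CPM in the controls and at 6.11 ± 0.833 and 21.1 ± 7.8 CPM in the challenged mice, neither passing (adjusted p = 0.722 and 0.199). Nmnat1, Naprt, Nnmt and Cd38 did not pass either, with log2 differences of 0.05 ± 0.09, -0.17 ± 0.12, 0.39 ± 0.19 and 0.13 ± 0.12. Of 23 NAD-consuming enzyme genes 2 were called higher, Parp14 from 20.1 ± 2.39 to 27.9 ± 4.08 CPM (adjusted p = 0.0227) and Tnks2 from 52.1 ± 2.53 to 63.8 ± 3.74 CPM (adjusted p = 0.0267); both calls were lost without control 1, 2 or 3. Transcript levels say nothing of the amount of NAD+ itself.

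**Figure D4:**
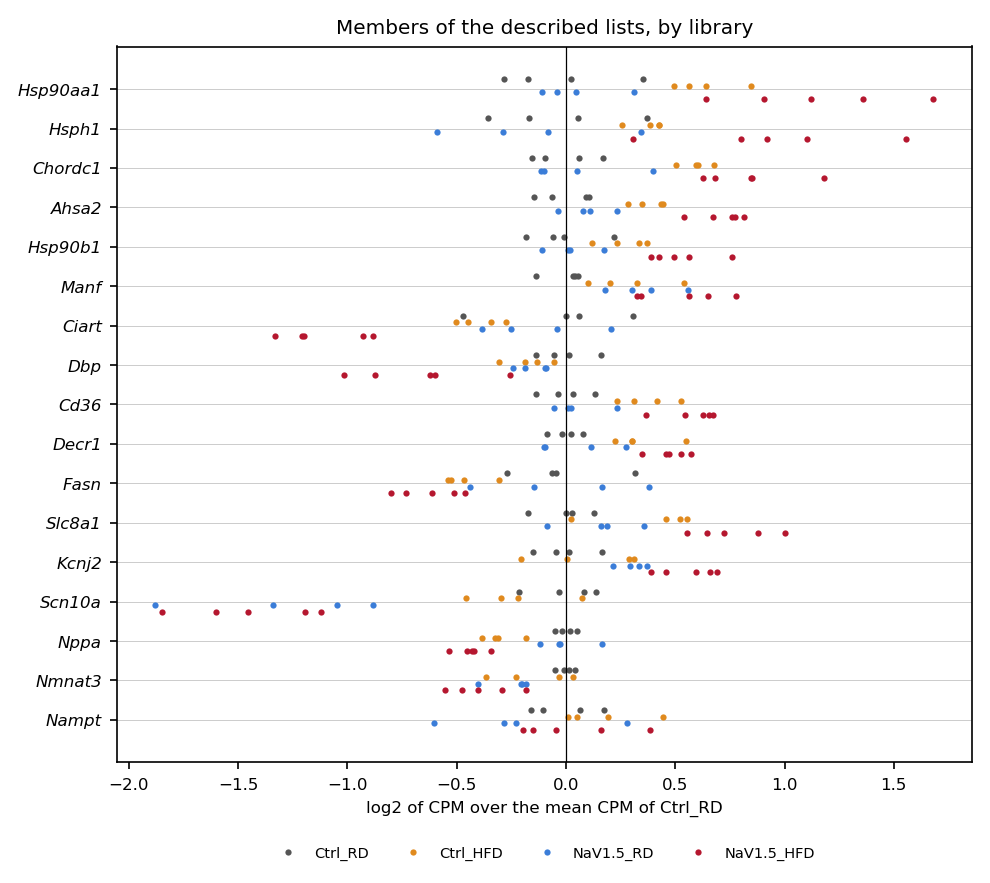
Dots are single libraries of the 4 diet groups for members of the described lists; the horizontal axis gives log2 of a library's CPM over the mean CPM of the controls. Hsp90aa1, Chordc1, Cd36 and Slc8a1 lie above all controls in the challenged mice and Ciart, Nppa and Scn10a below, while Nampt overlaps.

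Genes of the respiratory chain lay mostly above 0, with a number of calls that varied with the tool. Of 61 nuclear-encoded subunit genes 1 was called, Cycs, the cytochrome c gene, which rose from 240.2 ± 22.3 to 326 ± 27.8 CPM (adjusted p = 0.0356); 51 lay above 0 and the median was 0.23. The count was 6 with DESeq2, 29 with limma-voom and 19 without NaV1.5_RD library 4. So did cytosolic ribosomal protein genes, with 73 of 76 above 0, a median of 0.21 and 0 calls by edgeR or DESeq2 (15 by limma-voom; 2 at an unadjusted p under 0.05). Of 11 mitochondrially encoded genes, mt-Nd2 and mt-Nd3 were called higher. With mt-Nd2 at 20331, 20540.0, 14943 and 21146 CPM in the controls and 30979, 29292, 28131, 19782 and 28312 CPM in the challenged mice, control 3 and challenged library 4 were the low libraries of their groups. The list's median of 0.26 became -0.07 with GC and length offsets, where neither gene was called. Of 26 genes of mitochondrial biogenesis and dynamics, Esrrb, an orphan nuclear receptor gene, rose from 21.8 ± 3.68 to 32 ± 3.65 CPM (adjusted p = 0.0249) and Mfn2, the fusion protein mitofusin-2, fell from 709 ± 103 to 516 ± 41.6 CPM (adjusted p = 0.0409).

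Detoxifying enzymes were called lower where they were called. Of 20 glutathione transferase genes 4 were lower and 0 higher: Gstt2 stood at 37, 37, 40.1 and 35.7 CPM in the controls and 26.7, 27.6, 25.4, 28.3 and 28.3 CPM in the challenged mice (log2 -0.46 ± 0.08, adjusted p = 0.00369), and Gstm1, Gstm6 and Gstp1 were lower, with log2 differences of -0.38 ± 0.08, -0.50 ± 0.13 and -0.24 ± 0.07. The Gstm genes lie in a cluster of similar sequence, so their counts may be shared out unevenly. Of 31 antioxidant and oxidant enzymes 1 was called, beside 4.71% of all genes. It was Gpx3, the secreted glutathione peroxidase, which fell from 4858 ± 187 to 3746 ± 376 CPM (adjusted p = 0.0347, or 0.058 with offsets). In the prostaglandin pathway Ptgds was the 1 call among 19 genes.

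Interferon response and cell division genes were called in the upward direction only, beside 2.02% of all genes called higher and 2.68% lower. Of 36 interferon response genes 5 were called higher and 0 lower, 34 lay above 0 and the median was 0.45. Iigp1, an interferon-induced GTPase gene, stood at 20.1, 24.1, 27.6 and 29.9 CPM in the controls and at 35, 49.4, 48.6, 50.4 and 32.4 CPM in the challenged mice, with no overlap (log2 0.76 ± 0.14, adjusted p = 0.00655). Zbp1, a sensor of Z-form nucleic acid, rose from 3.16 ± 1.28 to 6.27 ± 1.67 CPM (adjusted p = 0.0233), and Gbp7, Gbp2 and Parp14 rose by log2 0.73 ± 0.18, 0.54 ± 0.15 and 0.48 ± 0.11. Of 29 cell division genes 4 were called higher and 0 lower, with a median of 0.58. Ccnb1, cyclin B1, had 0.293, 0.188, 0.415 and 0.51 CPM in the controls and 0.788, 1.43, 1.09, 1.75 and 1.61 CPM in the challenged mice (log2 1.89 ± 0.33, adjusted p = 0.00513). Cdk1, its kinase partner, rose from 2.03 ± 0.494 to 4.42 ± 1.17 CPM (adjusted p = 0.0182), and Hmmr and Ube2c by log2 2.15 ± 0.49 and 1.5 ± 0.38. In either list 1 gene was called without control 1. Of 24 inflammasome and cytokine genes Tlr4 rose from 4.96 ± 1.15 to 8.38 ± 1.84 CPM (adjusted p = 0.0357) and Lgals3 fell. Immediate early genes had 0 calls of 24 (0 by edgeR, 3 by DESeq2 and by limma-voom, 4 at an unadjusted p under 0.05), with a median of -0.26. In the hypoxia list Egln3, an oxygen-sensing hydroxylase gene, rose from 23.9 ± 1.38 to 37.8 ± 7.74 CPM (adjusted p = 0.0134), P4ha1 rose and Epas1, the HIF-2 alpha gene, was lower, with a log2 difference of -0.33 ± 0.09.

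Markers of other cell types were read beside these groups. Of 15 macrophage markers 1 was called, Mrc1, which rose from 26.6 ± 2.52 to 35.2 ± 3.58 CPM (adjusted p = 0.0264); 12 lay above 0 and the summed level was 795 to 1205 CPM in the controls and 993 to 1267 CPM in the challenged mice. Of 12 lymphocyte markers 10 lay above 0 (median 0.52) and 1 was called, Trac, the T-cell receptor alpha constant gene, lower at 16.2 CPM in the controls against 10.2 CPM in the challenged mice (log2 -0.66 ± 0.18, adjusted p = 0.0409; named after its values were seen). The lymphocyte markers summed to 36.4 to 46.8 CPM in the controls and 32.1 to 50.3 CPM in the challenged mice. The 7 tested red cell markers all lay above 0 with a median of 1.16 and 0 calls, and their sums were 427 to 1613 CPM against 867 to 2924 CPM. All 12 epicardial markers lay above 0 (median 0.25, 0 calls). Fibroblast markers had 0 calls of 13, with sums of 7075 to 7780 CPM against 5823 to 8285 CPM. Of 15 endothelial markers 2 were called, Fabp4 and Tmem100, both higher. In that list 11 lay above 0 and 4 below, with sums of 2364 to 2964 CPM against 2809 to 3331 CPM. The 5 tested brown fat markers all lay above 0 and 1 was called, Fabp3, higher. Their list summed to 1211 to 1609 CPM in the controls and 1690 to 1870 CPM in the challenged mice. Of the lung epithelium and thymus markers, 2 of 10 and 1 of 8 passed the count filter. The lung markers summed to 250 to 264 CPM in the controls and 205 to 246 CPM in the challenged mice. The thymus markers summed to 7.57 to 9.64 and 4.97 to 7.51 CPM, and the 1 tested was called lower (log2 -0.51). The part of these cells in the interferon, cell division or heat shock genes was not tested.

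The single-challenge groups were then set against each other, since they share no library with the comparison. Ctrl_HFD library 4, of batch label 2, is absorbed by the batch term here but enters the group's CPM means. Between NaV1.5_RD and Ctrl_HFD 47 genes were called (0.291% of genes tested), 23 higher in NaV1.5_RD and 24 higher in Ctrl_HFD. Of these, 11 were also called between challenged mice and controls, which is 23.4% of the 47 and 1.45% of the 761. Among the 327 genes higher in the challenged mice, 226 had the higher value in Ctrl_HFD and 101 in NaV1.5_RD. At an unadjusted p under 0.05, 79 were higher in Ctrl_HFD and 27 in NaV1.5_RD. Among the 434 lower genes, 310 had the lower value in Ctrl_HFD and 124 in NaV1.5_RD, and at an unadjusted p under 0.05 there were 87 and 18. Over all 16168 genes, 7415 had the higher value in Ctrl_HFD. At an unadjusted p under 0.05 there were 2221 genes in both directions together. Their split by direction is not given, so the splits at that cutoff have no background beside them. The count of 47 was 4 without Ctrl_HFD library 2 and 266 without NaV1.5_RD library 4.

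The genes named next, apart from AI593442, were chosen as those called in both contrasts with the smallest p in each direction of this one. That they fell on both sides follows from the choice. Dok5, an adaptor of receptor tyrosine kinases, was high wherever the label carried NaV1.5: 3.55 ± 0.285 CPM in the controls, 6.22 ± 0.827 in the challenged mice, 6.21 ± 1.5 in NaV1.5_RD and 2.95 ± 0.394 in Ctrl_HFD (cross contrast log2 1.17 ± 0.19, adjusted p = 0.00991). Gucy2e, a membrane guanylate cyclase gene, and Nav3, a neuron navigator gene, were low in the NaV1.5 groups, with cross contrast values of -3.16 ± 0.57 and -1.08 ± 0.22 beside -2.14 ± 0.47 and -0.82 ± 0.19 in the combined comparison. AI593442, named after its values were seen, stood at 0.657 ± 0.547 CPM in the controls, 4.28 ± 1.4 in the challenged mice, 3.1 ± 2.03 in NaV1.5_RD and 0.271 ± 0.081 in Ctrl_HFD. Itgb6, an integrin subunit gene, was high on the high-fat diet: 5.14 ± 0.779 CPM in the controls, 7.9 ± 0.903 in the challenged mice, 4.74 ± 0.83 in NaV1.5_RD and 10.3 ± 1.84 in Ctrl_HFD (cross contrast -1.06 ± 0.17, adjusted p = 0.00991). P4ha1 stood at 69.9 ± 3.31, 92.8 ± 8.22, 62.2 ± 7.66 and 84.7 ± 5.02 CPM in the same order of groups, with a cross contrast of -0.47 ± 0.10 (adjusted p = 0.0417). Cited1, a transcriptional co-activator gene, Grhpr, which reduces glyoxylate, and Mdk, the growth factor midkine, were lower in the challenged mice, with log2 differences of -0.58 ± 0.15, -0.47 ± 0.12 and -0.56 ± 0.14. They were higher in NaV1.5_RD than in Ctrl_HFD by log2 1.08 ± 0.17, 0.73 ± 0.14 and 0.76 ± 0.16.

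**Figure D5:**
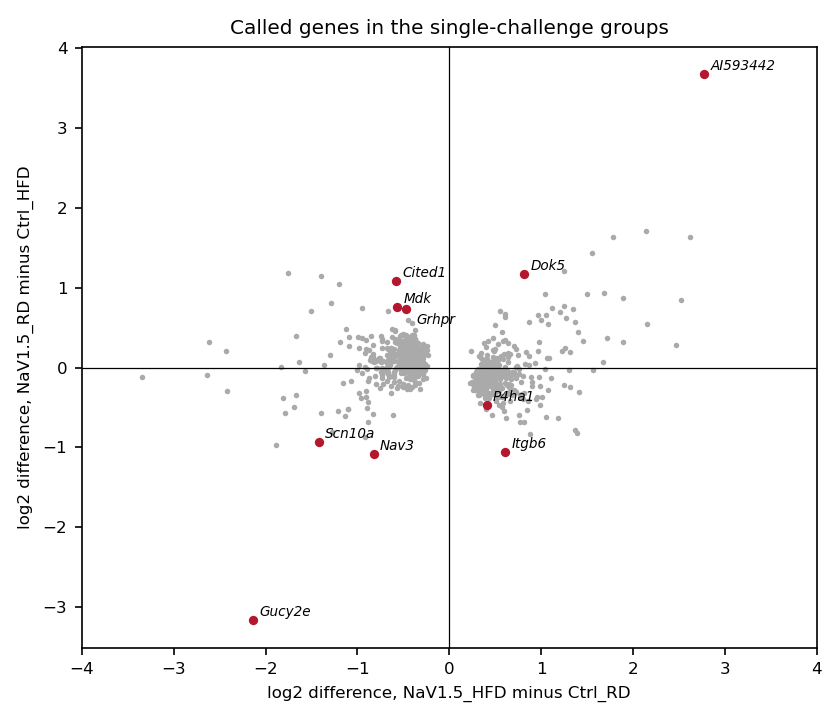
Each point is 1 of the genes called between challenged mice and controls (Cdh6 left out); the horizontal axis gives that log2 difference and the vertical axis the log2 difference between NaV1.5_RD and Ctrl_HFD, which share no library with it. Red points, with names, were called in both; 226 of the 327 genes on the right lie below 0 and 310 of the 434 on the left above 0.

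Whether the combined difference departed from the sum of the single ones was tested as an interaction. It gave 0 called genes by edgeR, DESeq2 and limma-voom and in every alternative fit run; at an unadjusted p under 0.05 there were 366 genes by edgeR, where 808 would be expected with no difference. The smallest adjusted p by edgeR was 0.999867. Examples of values in all 4 groups are Ptgds, at 43.5 ± 2.46 CPM in the controls, 29.5 ± 8.0 in Ctrl_HFD, 25.1 ± 8.18 in NaV1.5_RD and 8.11 ± 2.89 in the challenged mice (interaction log2 -1.12, unadjusted p = 0.0104). Ciart stood at 32 ± 6.77, 24.4 ± 1.75, 29.9 ± 5.43 and 14.9 ± 2.02 CPM in the same order (interaction log2 -0.63, unadjusted p = 0.00805). Hsp90aa1 stood at 48 ± 9.64, 74.9 ± 8.23, 50.1 ± 6.71 and 109 ± 30.6 CPM (interaction log2 0.44, unadjusted p = 0.117). A missed threshold does not show that the challenges add without interacting.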

How the data were processed

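RNA of mouse atria was sequenced after poly-A selection with a stranded kit, per the labels' protocols. Reads were checked with FastQC 0.11.7, aligned with STAR 2.7.6a and counted with featureCounts 2.0.1 on GRCm38, per the submitters' processing notes. The deposited files hold unnormalized pair counts, summed by GENCODE vM25 gene name, per the file headers; strand was not used in the counting, so overlapping genes on opposite strands cannot be told apart.

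The 17 libraries of the 4 diet groups were fitted together with edgeR 4.0.16 (R 4.3.3): the default filter by expression (16168 genes kept), TMM scaling, terms for group and batch, and robust quasi-likelihood F-tests. The p-values are 2-sided, and genes were called at a Benjamini-Hochberg adjusted p under 0.05, adjusted over the whole table. The batch term absorbs Ctrl_HFD library 4, the only one of batch 2. CPM are TMM-scaled. Standard errors are the log2 difference divided by the root of F. DESeq2 1.42.0 and limma 3.58.1 were alternatives, as were other filters, scalings, offsets for GC content and length, and each library left out. On simulated counts (15957 genes) the fit recovered 38% of 50 genes changed 1.5-fold, 80% at 2-fold, 100% at 4-fold and 96% at 8-fold, with 6 false calls. The simulated libraries were drawn independently around each gene's mean, without shifts of whole libraries. These rates therefore do not give the error rate on the real libraries, where the number called moved with single libraries. No pair of libraries within a group agreed within counting noise (chi-square per gene at least 6.40). Coordinates are from a GENCODE annotation of GRCm38; promoter windows are from RefSeq (GRCm38.p6).

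Named genes were the 12 with the smallest p and the 6 with the largest difference in each direction. Up to 4 members per list with the smallest p, and fixed checks, were added. So were up to 5 genes with the smallest p in each direction of the single-challenge contrast, among those called in both contrasts. Others are marked where they appear as named after their values were seen. This also holds for Adipoq, Arntl, Dkk3, Dnajc3, Drosha, Fabp3, Gbp2, Mrc1, Myl2, Myl7, Pdia6 and Plin1. The members and lists were chosen with earlier results of these data known. Lists were described by counts and medians and not tested as sets. The 12 libraries of the vehicle and nicotinamide riboside groups were not used here. Values of some named genes are not reported here.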

Additional observations from a re-analysis of the deposited data

Results flagged for a closer look

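In 396 groups of 4 or 5 library values of named genes, 27 held a lowest or highest library set apart from the others by Dixon's criterion, where chance sets apart about 1 in 20. Among the controls, the high library stood at 18 CPM for Cited1, 64.8 for Dnajc3, 27.3 for Esrrb, 80.2 for Myl2, 356 for Ndufa3, 7.02 for Nnmt and 2.12 for Ube2c. The low control library stood at 90.3 CPM for Cirbp, 153 for Hk1, 1.46 for Hspa1b, 89.3 for Lum, 35.5 for Manf, 555 for Mfn2 and 14943 for mt-Nd2. Among the challenged mice, the high library stood at 1.42 CPM for Adipoq, 12.4 for Cited1, 1335 for Ech1, 2.75 for Hspa1a, 102 for Myl2, 10.4 for Neto2 and 30.4 for Nmnat1. The low challenged library stood at 18 CPM for Hand2, 6.67 for Hsd17b7, 28.9 for Mrc1, 8.25 for Sh3tc2, 51.1 for Slc25a51 and 19782 for mt-Nd2. Of these genes, Cirbp, Ech1, Neto2 and Sh3tc2 were called in each of the 17 fits that left 1 library out. Myl2, the ventricular light chain, showed the widest gap as a ratio, with every other library of the 9 between 3.13 and 8.86 CPM.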

How the results depend on the processing

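Against 761 calls in the combined comparison, 416 were made with GC and length offsets, 1366 with DESeq2, 2765 with limma-voom, and 135 to 1416 with 1 library left out. The lowest count was without control 1 and the highest without NaV1.5_RD library 4. Against 47 calls between the single-challenge groups, 77 were made with no low-count filter, 252 with DESeq2, 1536 with limma-voom, and 4 to 266 with 1 library left out; the interaction gave 0 in each fit. The cause of these shifts was not tested. Of the 135 called named genes, 133 were called with DESeq2 size factors, 132 with DESeq2, 117 with no low-count filter and 92 of 134 with offsets. Without control 1, 2 or 3, 47, 75 and 72 were called, and without challenged library 2 or 3, 71 and 72 of 134; with the replicate block 26 were called. All those tested kept their direction in these fits.

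Direction changed in uncalled genes only. With offsets, the log2 difference was -0.021 for Cd38, -0.073 for mt-Nd4, -0.11 for Nampt and 0.013 for Arntl. With limma-voom it was -0.50 for Myl2 and -0.19 for Hspa1a, and with DESeq2 0.012 for Arntl. Over the fits lacking 1 library, it spanned -0.33 to 0.31 for Arntl, -0.31 to 0.11 for Hspa1a, -1.85 to 2.45 for Myl2, -0.052 to 0.11 for Nampt and -0.013 to 0.083 for Nmnat1.

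The labels number some libraries alike across groups. Over 3 same-numbered pairs the correlation of deviations from group means ran from -0.1565 to 0.0019, and 0 challenged libraries correlated best with their own number, so the numbers were not taken as pairs. A fit with the replicate block, leaving out unnumbered libraries, called 58 genes, of which 54 were among the 761, and gave -0.043 for Nmnat1 and 0.015 for Arntl. Depth limits genes under about 1 CPM most, since each library then holds few counts.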

Other observations

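Some called genes lay side by side. Of 16146 pairs of adjacent tested genes, 50 had both members called, and in 45 of these both moved in 1 direction; 28 of the 45 lay on the same strand and 4 overlapped. A run on chromosome 19 held Aldh3b3, Aldh3b2, Acy3 and Tbx10, all lower, with log2 differences of -1.10 ± 0.24, -1.79 ± 0.25, -0.98 ± 0.12 and -1.64 ± 0.38. Aldh3b2, an aldehyde dehydrogenase gene, stood at 9.07, 5.69, 7.41 and 4.75 CPM in the controls and at 2.94, 1.61, 1.04, 2.27 and 1.86 CPM in the challenged mice. Acy3, an aminoacylase gene, stood at 135, 114, 137 and 104 against 67.3, 51.4, 49.1, 75.2 and 66.7 CPM, and in both genes the groups did not overlap.

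The kinase genes Sbk2 and Sbk3 and the zinc finger gene Zfp579 were lower side by side on chromosome 7, Sbk2 from 573 ± 64.4 to 345 ± 68.1 CPM and Zfp579 from 177 ± 26.4 to 119 ± 20.2 CPM. On chromosome 1 Lad1 lay between the troponin genes Tnni1 and Tnnt2, and all 3 were lower, Lad1 from 79.5 ± 13.9 to 49.8 ± 4.76 CPM. Podn, next to Slc1a7 on chromosome 4, was lower as well, from 595 ± 111 to 328 ± 53.8 CPM. The hepcidin genes Hamp and Hamp2, peptides of iron control, were lower together, Hamp from 172 ± 44.7 to 49.1 ± 25 CPM with a log2 difference of -1.80 ± 0.38; their sequences are similar, so their counts may be shared out unevenly. Genes in this and the preceding paragraph were chosen after their values were seen, apart from Aldh3b2, Acy3, Hamp2, Sbk3, Slc1a7 and Tnni1. Whether adjacent calls exceed what unrelated positions would give was not tested.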
